A study of Mus musculus with 21 samples.

Results

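Cardiomyocytes made from mouse embryonic stem (ES) cells and from mouse induced pluripotent stem (iPS) cells were compared with cultured adult mouse tail tip fibroblasts. The samples were chosen by their labels: 3 arrays of ES cell cardiomyocytes, 3 of iPS cell cardiomyocytes and 3 of fibroblasts, 9 of the 21 Illumina bead arrays in the series. The other 12 arrays hold undifferentiated cells and whole embryoid bodies of both lines. The ES line is labelled aPIG D3 and the iPS line aPIG TiB7.4, and each line gave 3 independent cultures at passages 7, 9 and 10 (ES) or 5, 7 and 8 (iPS). Both lines carry the aPIG construct, in which the promoter of the alpha myosin heavy chain gene (Myh6) drives green fluorescent protein and puromycin resistance. Aggregates of differentiating cells (embryoid bodies) were kept in spinner flasks, received 8 µg/ml puromycin from day 9, and the beating clusters that survived were taken for RNA on day 16, after 7 days of selection by the design text and 6 to 8 by the protocol. The fibroblasts were primary cultures from F1 mice of 129Sv x c57BL6 aged 8 weeks, and their labels name neither the construct nor puromycin. Before differentiation both lines had been grown with LIF on feeder layers of inactivated embryonic fibroblasts. Each stem cell type is 1 line, so that a difference between ES and iPS origin cannot be told apart from a difference between these lines. Cardiomyocytes and fibroblasts also differ in developmental age, in the form of culture and in the selection, and these cannot be told apart from cell type. The sex chromosome genes Xist and Eif2s3y also read differently in them, as given below, and sex cannot be told apart from cell type either.

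A cardiomyocyte contracts through sarcomeres, in which thick myosin filaments slide along thin actin filaments when calcium binds the troponin complex. Calcium is released from the sarcoplasmic reticulum by the ryanodine receptor and pumped back by SERCA2, and the cost is met by dense mitochondria that burn fatty acids. Fibroblasts instead secrete and cross-link collagen and remodel the matrix with proteases, and in culture they divide and release chemokines.

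Values are normalized log2 intensities on which background lies near 4.1, and a probe was called detected on an array at a detection p under 0.01. The 2 deposited tables list the same values under different probe identifiers, and gene names here rest on those of the non-normalized table, under which 40 of 40 pluripotency probes were higher in undifferentiated cells, against 9 of 22 under the others. Each gene is given by the probe with its highest mean over the 9 arrays. Across the 9 arrays, 14246 to 16592 of 45281 probes were detected, and the number of arrays limits the precision. Array correlations lay between 0.992 and 0.996 within ES cardiomyocytes, between 0.986 and 0.992 within iPS cardiomyocytes, between 0.960 and 0.972 across these 2 cell types, and between 0.731 and 0.764 with fibroblasts. Fibroblast array 3 stood apart from the others of its group. Between it and arrays 1 and 2, 840 and 728 probes were at least 2-fold apart, against 4 probes between arrays 1 and 2. The series' design text calls the fibroblast arrays technical replicates of single RNA, whereas the labels give them passages 2, 3 and 4. The genes that set array 3 furthest apart included Plau (10.34 against 6.29 and 6.40), the macrophage and antigen-presenting cell gene Cd74 (8.62 against 4.64 and 4.66) and Il6 (9.18 against 6.07 and 5.95) at the high end, and the placental hormone family genes Prl2c3 and Prl2c4 (7.63 and 7.20, against 10.79 to 11.37) at the low end. Xist, the RNA of the inactive X chromosome, read 10.16, 10.08 and 8.50 on the 3 fibroblast arrays and was detected on no cardiomyocyte array. The Y-linked Eif2s3y read 6.30 to 6.72 on the fibroblast arrays and 8.78 to 9.25 on 5 cardiomyocyte arrays, with 6.97 on iPS cardiomyocyte array 1. That array was the one apart in its group, with 212 and 198 probes at least 2-fold from the others, which had 65 such probes between them. On ES cardiomyocyte array 1 the immediate early gene Fos read 10.96, against 7.94 and 8.09.

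The fibroblast arrays were averaged into 1 sample, and differences were tested with limma over 21047 probes in a model of all 7 groups. Because the fibroblasts enter as 1 averaged sample, it was assumed to vary like the other groups, and the tests concern these fibroblast arrays. Whether the arrays hold 1 RNA or 3 passages was not settled here. In ES cardiomyocytes 10165 probes differed from fibroblasts at an adjusted p under 0.05, which is 48.3% of those tested, 5463 higher (26.0%) and 4702 lower (22.3%). In iPS cardiomyocytes 9909 differed, or 47.1%, 5342 higher (25.4%) and 4567 lower (21.7%). Scaling arrays to a common median instead of by quantiles gave 2140 higher and 5958 lower (ES) and 2252 higher and 5556 lower (iPS). The median difference of all tested probes moved from 0.047 to -0.263 (ES) and from 0.061 to -0.201 (iPS), so that counts by direction depend on the scaling. Without fibroblast array 3 the counts were 9932 and 9742. Both comparisons use the same fibroblast values and are therefore given side by side.

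From here on a gene is counted only where its adjusted p was under 0.05 and its difference at least 2-fold. By this rule 15.9% of 11501 tested genes were higher and 16.8% lower in ES cardiomyocytes, and 15.4% and 16.7% in iPS cardiomyocytes. Where a gene was detected on no array of the dimmer group, only a lower limit of the fold is known, and it is written as at least so many fold. In these bulk samples fewer expressing cells and less RNA per cell cannot be told apart.

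Genes of the contractile apparatus held most of the highest places. The regulatory myosin light chain of ventricular muscle, Myl2, read 14.02, 14.06 and 13.96 on the ES cardiomyocyte arrays, 13.58, 13.92 and 13.75 on the iPS cardiomyocyte arrays, and 4.35, 4.30 and 4.22 on the fibroblast arrays. No fibroblast array detected it, and the groups were separated by more than 9 log2 units on every pair of arrays. It was at least 674-fold higher in ES cardiomyocytes (log2 difference 9.72 ± 0.31 SE, adjusted p = 1.3e-13) and at least 562-fold higher in iPS cardiomyocytes (9.46 ± 0.31, adjusted p = 1.7e-13). The essential light chain Myl3 (at least 596-fold and 546-fold), the cardiac actin Actc1 (at least 591-fold and 629-fold) and the atrial light chain Myl7 (at least 534-fold and 454-fold) followed. Myh6 itself, whose promoter drives the selection, was at least 426-fold and 312-fold higher. It read 13.43, 13.40 and 13.22 in ES cardiomyocytes and 12.50, 13.22 and 12.98 in iPS cardiomyocytes. As the cells were selected through this promoter, its level is a check of the selection.

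The 250 bases before the annotated start of the 5 genes just named are shown with those of the highest-ranked fibroblast genes that have an entry off the chromosomes left out here, Serpinf1 and Cxcl1, since these genes mark the ends of the comparison. Sequences are from RefSeq (GRCm38.p6), 5′ to 3′ on the gene's strand. Capitals mark matches, on either strand, to the TATA box searched as TATAAA, the GATA factor motif searched as AGATAA, the MCAT motif of TEAD factors searched as CATTCC, the CArG box of serum response factor and the MEF2 box. The motifs may overlap. RefSeq gives Myl2 more than 1 start, and the first is used.
Myl2, chr5:122092474-122092723, plus strand: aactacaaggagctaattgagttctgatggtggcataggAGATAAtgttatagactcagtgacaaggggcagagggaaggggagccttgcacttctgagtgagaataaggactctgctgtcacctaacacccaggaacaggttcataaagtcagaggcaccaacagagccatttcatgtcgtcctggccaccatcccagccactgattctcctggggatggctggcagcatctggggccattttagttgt
Myl3, chr9:110763428-110763677, plus strand: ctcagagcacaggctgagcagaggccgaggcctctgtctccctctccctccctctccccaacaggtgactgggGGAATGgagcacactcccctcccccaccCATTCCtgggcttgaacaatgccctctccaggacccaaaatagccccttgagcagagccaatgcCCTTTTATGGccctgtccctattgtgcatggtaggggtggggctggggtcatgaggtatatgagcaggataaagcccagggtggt
Actc1, chr2:114052876-114053125, minus strand: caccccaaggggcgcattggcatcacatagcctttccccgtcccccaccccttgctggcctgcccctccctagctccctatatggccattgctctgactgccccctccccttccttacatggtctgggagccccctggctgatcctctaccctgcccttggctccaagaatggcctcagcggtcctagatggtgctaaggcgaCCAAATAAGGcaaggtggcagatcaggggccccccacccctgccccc
Myl7, chr11:5898783-5899032, minus strand: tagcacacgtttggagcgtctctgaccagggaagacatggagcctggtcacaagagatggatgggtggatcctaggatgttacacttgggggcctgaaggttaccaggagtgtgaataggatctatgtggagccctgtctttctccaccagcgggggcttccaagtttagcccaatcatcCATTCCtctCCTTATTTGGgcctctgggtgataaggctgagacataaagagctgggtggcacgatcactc
Myh6, chr14:54966608-54966857, minus strand: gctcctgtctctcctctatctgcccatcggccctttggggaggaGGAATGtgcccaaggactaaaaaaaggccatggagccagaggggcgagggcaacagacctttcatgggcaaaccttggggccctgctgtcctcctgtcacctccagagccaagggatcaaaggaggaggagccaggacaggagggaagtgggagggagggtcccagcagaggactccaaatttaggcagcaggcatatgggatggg
Serpinf1, chr11:75422624-75422873, minus strand: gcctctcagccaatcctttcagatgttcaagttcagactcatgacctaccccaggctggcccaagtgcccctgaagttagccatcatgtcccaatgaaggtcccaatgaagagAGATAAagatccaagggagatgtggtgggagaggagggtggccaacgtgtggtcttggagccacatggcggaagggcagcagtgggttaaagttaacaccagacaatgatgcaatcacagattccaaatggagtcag
Cxcl1, chr5:90890995-90891244, plus strand: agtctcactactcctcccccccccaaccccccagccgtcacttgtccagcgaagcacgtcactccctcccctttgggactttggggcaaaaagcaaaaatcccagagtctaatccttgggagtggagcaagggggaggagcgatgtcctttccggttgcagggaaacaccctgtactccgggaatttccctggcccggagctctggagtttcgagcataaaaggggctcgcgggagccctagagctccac
The CArG matches ended 38 bases before the start in Actc1, 52 in Myl7 and 76 in Myl3. Among the 17 genes named for the highest differences in either line, 16 had an entry, and 6 of them (37.5%) held a CArG box in this window: Actc1, Myl3, Myl7, Asb2, Hopx and Igf2. Of 9248 tested genes with an entry, 1.64% did. CATTCC was in 8 of these 16 (50.0%) and in 13.1% of tested genes. The MEF2 box was in none of the 16. It was in 8.15% of the 356 genes with an entry among those at least 4-fold higher in cardiomyocytes of both lines, in 1.72% of the 641 among those at least 4-fold higher in fibroblasts, and in 2.07% of tested genes. In the same cardiomyocyte-high and fibroblast-high sets, the CArG box was in 4.21% and 1.56%. CATTCC was in 19.7% and 17.0% of them, so that its share was similar in both. Of the 13 genes with an entry named for the largest differences toward fibroblasts, none held a CArG box. A match shows only that the letters are present.

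Of 23 tested sarcomere genes, 22 were higher in ES and 21 in iPS cardiomyocytes, and 1 was lower in each. The list's median difference was 6.66 and 6.74, against 0.03 and 0.04 over all tested genes. The thin filament gene Tnnc1 (troponin C) was 283-fold and 257-fold higher. Titin (Ttn), the molecular spring of the sarcomere, was at least 76.7-fold and 81.6-fold higher, and read 10.11 on iPS cardiomyocyte array 1 against 11.48 and 11.32 on the others. Both troponin I genes were present. The slow skeletal and fetal form Tnni1 read 9.84 to 10.03 in ES and 10.03 to 10.38 in iPS cardiomyocytes, and the cardiac form Tnni3 10.05 to 10.11 and 9.23 to 9.88. The beta myosin heavy chain Myh7, which predominates in the fetal mouse ventricle, was dim: 5.16 to 5.31 in ES and 4.82 to 5.41 in iPS cardiomyocytes. It was at least 1.55-fold and 1.44-fold above fibroblasts, where it was not detected (log2 difference 1.07 ± 0.17 and 0.96 ± 0.17, adjusted p = 4.4e-05 and 1.4e-04).

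The exception in the list was Tpm1, a tropomyosin gene with muscle and non-muscle transcripts. It read 12.58, 12.37 and 12.37 in fibroblasts, 7.85 to 8.16 in ES and 7.42 to 8.03 in iPS cardiomyocytes, 21.5-fold and 26.4-fold lower than in fibroblasts. A second Tpm1 probe gave log2 differences of -4.16 and -4.50. Which transcripts these probes reach was not analysed here. Between the lines, none of the 23 sarcomere genes passed limma's test at an adjusted p under 0.05, and under other settings at most 1 was higher (Mybpc3) and 2 lower in iPS cardiomyocytes. At that threshold 12.2% of all tested genes were higher and 13.2% lower in iPS cardiomyocytes. The list's median between the lines was -0.14.

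**Figure D1:**
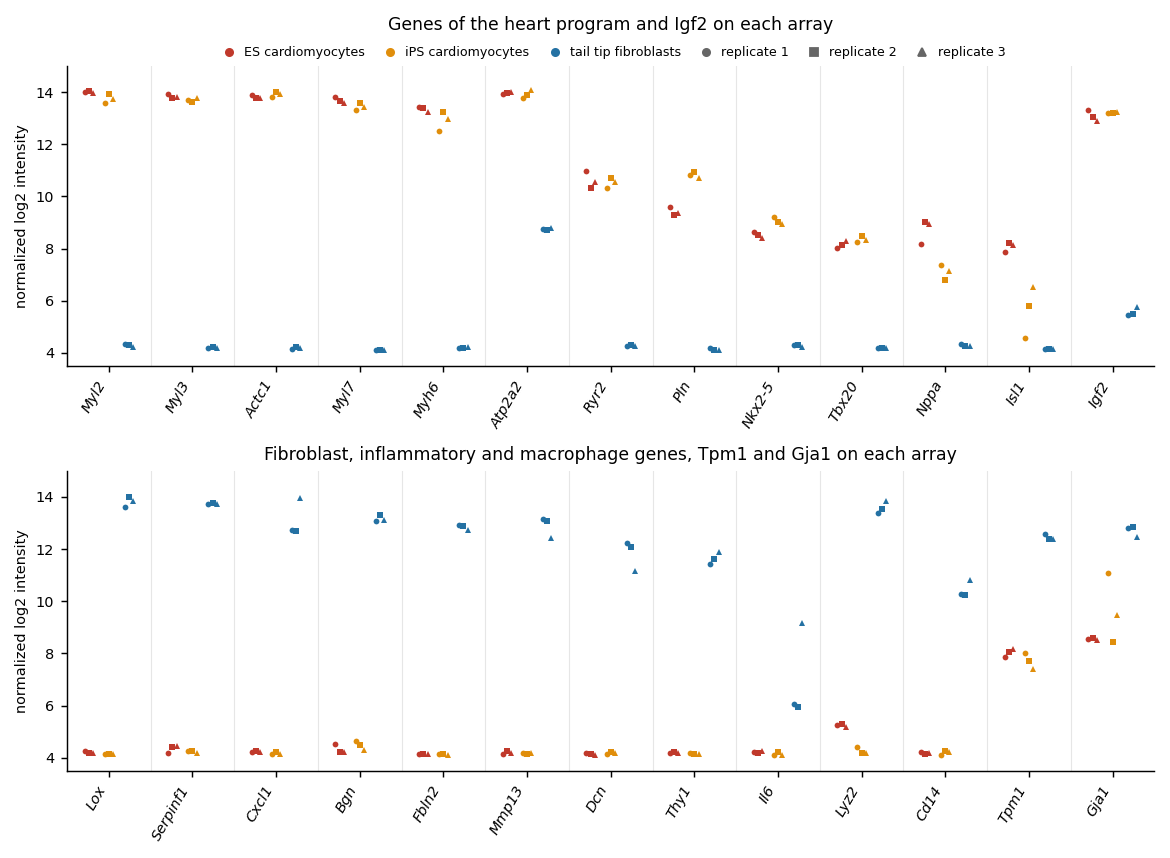
Normalized log2 intensity (vertical axis) of 26 genes (horizontal axis) on each of 9 arrays; colours give the cell type and marker shapes the replicate. The upper genes lie near background on all fibroblast arrays except Atp2a2 and Igf2, the lower genes are highest in fibroblasts, and fibroblast array 3 (blue triangle) stands apart for Il6 (9.18) and Cxcl1 (13.96).

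Calcium cycling genes were higher in both cardiomyocyte types, 18 of 22 tested in ES and 16 of 22 in iPS, with 1 lower in each. The SERCA2 pump gene Atp2a2 read 13.94 to 14.02 in ES and 13.76 to 14.08 in iPS cardiomyocytes against 8.72 to 8.80 in fibroblasts, 37.3-fold and 35.5-fold higher. The ryanodine receptor Ryr2 was at least 64.7-fold and 60.2-fold higher, and the reticulum calcium-binding protein Hrc at least 57.7-fold and 45.9-fold. The sodium-calcium exchanger Slc8a1 was 21.5-fold and 23.6-fold higher. Between the lines, at an adjusted p under 0.05 alone, 4 of the 22 were higher and 4 lower in iPS cardiomyocytes. Over all tested genes the shares were 12.2% and 13.2%. Phospholamban (Pln), which restrains SERCA2, read 9.60, 9.27 and 9.35 in ES cardiomyocytes and 10.84, 10.94 and 10.72 in iPS cardiomyocytes, with no overlap, and was 2.69-fold higher in the latter (log2 difference 1.43 ± 0.16, adjusted p = 9.5e-06). The calcium store protein Casq2 was 1.56-fold higher in iPS cardiomyocytes (0.64 ± 0.13, adjusted p = 0.0017). Connexin 40 (Gja5), the gap junction protein of atria and conduction cells, read 6.18 to 6.54 in ES and 4.41 to 5.34 in iPS cardiomyocytes, 2.99-fold lower in the latter (adjusted p = 1.4e-05).

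The lower member was Gja1, connexin 43, the gap junction protein of working ventricle and of fibroblasts. It read 12.79, 12.86 and 12.45 in fibroblasts, 8.52 to 8.60 in ES cardiomyocytes, and 11.10, 8.42 and 9.49 in iPS cardiomyocytes. Fibroblasts exceeded every cardiomyocyte array, by 17.7-fold over ES and 8.18-fold over iPS cardiomyocytes on average (adjusted p = 1.9e-05 and 4.6e-04). The difference between the lines missed the threshold (1.12 ± 0.43, adjusted p = 0.071) and passed it without iPS cardiomyocyte array 2 (adjusted p = 0.0021).

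Of 22 tested transcription factors of heart development, 16 were higher in each cardiomyocyte type and none lower by at least 2-fold. Between the lines, at an adjusted p under 0.05 alone, 4 of the 22 were higher and 3 lower in iPS cardiomyocytes. Over all tested genes the shares were 12.2% and 13.2%. Gata6 was 63.4-fold and 62.7-fold higher, and the serum response factor coactivator Myocd at least 56.2-fold and 36.2-fold. Nkx2-5, an early cardiac homeobox gene, read 8.41 to 8.64 in ES and 8.95 to 9.22 in iPS cardiomyocytes and was detected on no fibroblast array. It was 1.46-fold higher in iPS cardiomyocytes (adjusted p = 0.0041). The titin-associated stress gene Ankrd1 was 59.3-fold and 49.8-fold higher. Gata4 was dim in both, with at least 1.52-fold and 1.78-fold over fibroblasts, and the epicardial factor Tbx18 was detected on no cardiomyocyte array and on all 3 fibroblast arrays (4.73 to 5.13). Isl1, a marker of second heart field progenitors, read 7.88, 8.21 and 8.14 in ES cardiomyocytes against 4.56, 5.79 and 6.53 in iPS cardiomyocytes. All ES values lay above all iPS values, and the difference was 5.46-fold (log2 -2.45 ± 0.31 for iPS minus ES, adjusted p = 3.1e-05). Tbx5, of the first heart field and atria, was 1.69-fold lower in iPS cardiomyocytes (adjusted p = 0.0012), and the ventricular factor Irx4 was 1.99-fold higher (adjusted p = 1.1e-04).

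Among 9 tested factors secreted by the heart, 4 were higher and 3 lower than in fibroblasts in each line. Over all tested genes 15.9% (ES) and 15.4% (iPS) were higher and 16.8% and 16.7% lower. Between the lines, at an adjusted p under 0.05 alone, 1 of the 9 was higher and 3 lower in iPS cardiomyocytes. The atrial natriuretic peptide gene Nppa read 8.18, 9.02 and 8.93 in ES and 7.38, 6.81 and 7.14 in iPS cardiomyocytes, and its relative Nppb 7.54 to 8.15 and 5.76 to 6.81. Neither was detected in fibroblasts. Both were lower in iPS than in ES cardiomyocytes, by 3.02-fold (adjusted p = 9.0e-06) and 3.22-fold (adjusted p = 6.5e-04), with no overlap of arrays. Bmp7 was 1.89-fold higher in iPS cardiomyocytes (adjusted p = 0.0076). The matricellular gene Ccn2 was lower than in fibroblasts, 5.62-fold and 5.65-fold.

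Mitochondrial genes were higher as a group but by smaller amounts. Of 27 tested genes of the respiratory chain and citric acid cycle, 23 (ES) and 24 (iPS) were higher and none was lower by 2-fold, with medians of 1.77 and 1.88. A further probe of the list member Ndufb8, not the one used here, was lower, at log2 -2.04 (ES) and -2.01 (iPS). It was detected on all 3 fibroblast arrays and on no cardiomyocyte array. The muscle isoforms led. Cox8b was at least 114-fold and 107-fold higher, Cox6a2 140-fold and 126-fold, and Cox7a1 27.6-fold and 25.8-fold. Of 21 genes of fatty acid oxidation, 17 and 18 were higher and 1 was lower. Ppargc1a, the coactivator of mitochondrial biogenesis, was at least 28.4-fold and 40.1-fold higher. The fatty acid carrier Fabp3 was 30.3-fold and 33.1-fold higher, and Cpt1b, the muscle form of the gatekeeper of fatty acid entry, 21.2-fold and 27.2-fold. Under common-median scaling these counts fell to 17 and 16 of 27 for the respiratory list, and to 11 and 10 of 21 for fatty acid oxidation. Lipoprotein lipase (Lpl) differed between the lines. It read 12.09 to 12.22 in ES cardiomyocytes, 10.11 to 10.79 in iPS cardiomyocytes and 9.88 to 10.81 in fibroblasts. Only ES cardiomyocytes differed from fibroblasts in the test (3.86-fold, adjusted p = 8.2e-07, against adjusted p = 0.42), and the 2 lines differed by 3.27-fold (adjusted p = 5.7e-07).

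Glycolytic genes went both ways. Of 20 tested, 7 were higher and 4 lower in ES cardiomyocytes, and 8 higher and 1 lower in iPS cardiomyocytes. Over all tested genes 15.9% and 15.4% were higher and 16.8% and 16.7% lower. The muscle isoforms Eno3 (137-fold and 161-fold), Pgam2 (108-fold and 70.4-fold) and Pfkm (6.26-fold and 4.92-fold) were higher. Pyruvate kinase (Pkm) was lower, 2.94-fold in ES and 1.62-fold in iPS cardiomyocytes. Pdk4, which restrains glucose oxidation in heart, was 8.60-fold and 3.94-fold higher than in fibroblasts and 2.18-fold lower in iPS than in ES cardiomyocytes (adjusted p = 5.2e-04). The mitochondrial isocitrate dehydrogenase Idh2 was 2.39-fold higher in iPS than in ES cardiomyocytes (adjusted p = 9.8e-04). Under common-median scaling the line differences of Idh2 and Pkm kept their direction but missed the threshold (adjusted p = 0.17 and 0.093).

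**Figure D2:**
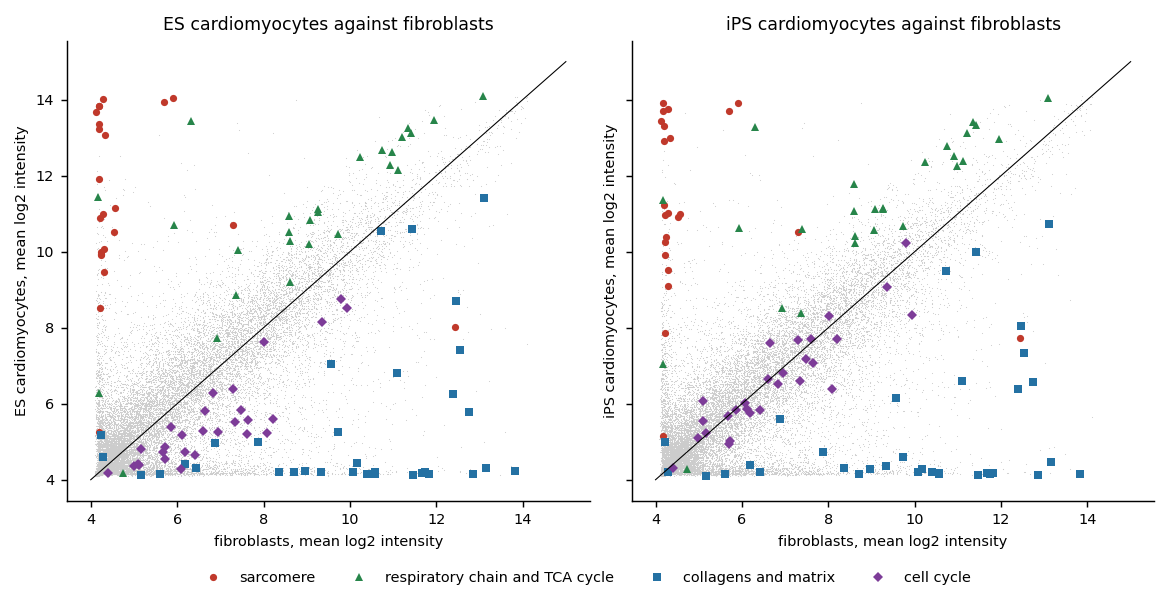
Mean normalized log2 intensity in fibroblasts (horizontal axis) against ES cardiomyocytes (left) and iPS cardiomyocytes (right) for 21047 tested probes (grey), with the members of 4 gene lists in colour and the line of equal level. Sarcomere genes other than Tpm1 lie above the line, most collagen and matrix genes lie along the floor, and the cell cycle genes lie lower on the left than on the right.

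Toward fibroblasts, the largest differences were of secreted and matrix genes. Lysyl oxidase (Lox), which cross-links collagen and elastin, read 13.63, 13.99 and 13.83 in fibroblasts and 4.13 to 4.27 in cardiomyocytes, where no array detected it. It was at least 524-fold lower in ES and at least 545-fold lower in iPS cardiomyocytes (log2 difference -9.60 ± 0.53 and -9.68 ± 0.53, adjusted p = 1.1e-10 and 1.0e-10). Serpinf1, which encodes the antiangiogenic protein PEDF, was at least 494-fold and 514-fold lower, the small proteoglycan biglycan (Bgn) at least 331-fold and 344-fold, and the elastic fibre protein gene Fbln2 at least 270-fold and 281-fold. Of 34 tested collagens and matrix genes, 30 were lower in ES and 32 in iPS cardiomyocytes, and none was higher by 2-fold. The medians were -4.62 and -4.84. Col1a1, the main fibrillar collagen of skin, read 11.51 to 11.97 in fibroblasts and was detected on no cardiomyocyte array (at least 125-fold and 130-fold lower). Decorin (Dcn) read 12.24 and 12.07 on fibroblast arrays 1 and 2 and 11.15 on array 3.

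The basement membrane collagens were the ones that did not follow. Col4a1 read 10.47 to 10.75 in ES cardiomyocytes and 11.32 to 11.51 in fibroblasts, and missed the threshold (log2 difference -0.83 ± 0.47, adjusted p = 0.17). In iPS cardiomyocytes it read 9.46 to 10.32 and was 2.71-fold lower (adjusted p = 0.018). Col4a2 was level with fibroblasts in ES cardiomyocytes within its error (-0.20 ± 0.42, adjusted p = 0.77), and 2.38-fold lower in iPS cardiomyocytes (adjusted p = 0.021). The difference between the lines for Col4a2 was 2.08-fold (adjusted p = 0.016). Without iPS cardiomyocyte array 1 the last 3 of these calls missed the threshold, at adjusted p of 0.058, 0.061 and 0.076.

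Of 23 tested genes of matrix turnover, 19 were lower in each line and none higher. The collagenase Mmp13 was at least 274-fold and 285-fold lower and the stromelysin Mmp3 at least 108-fold and 112-fold. Timp1, an inhibitor of matrix proteases, read 13.07 to 13.46 in fibroblasts, 6.30 to 6.74 in ES and 4.73 to 5.00 in iPS cardiomyocytes, 99.2-fold and 325-fold lower, and was 3.28-fold lower in iPS than in ES cardiomyocytes (adjusted p = 3.0e-04).

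Of 27 surface markers and transcription factors of fibroblasts, 20 were lower in ES and 21 in iPS cardiomyocytes. Thy1 was at least 117-fold and 122-fold lower, and the calcium-binding protein S100a4 at least 35.7-fold and 37.1-fold. Vimentin (Vim), the intermediate filament of mesenchymal cells, was detected on every array: 11.36 to 11.53 in fibroblasts, 5.73 to 5.96 in ES and 6.35 to 6.80 in iPS cardiomyocytes. The member that ran the other way was Nt5e, which encodes CD73, with 8.10 to 8.19 in ES and 8.48 to 8.99 in iPS cardiomyocytes against 6.97 to 7.70 in fibroblasts. It was 2.65-fold higher in iPS cardiomyocytes (adjusted p = 9.5e-04) and 1.85-fold higher in ES cardiomyocytes (adjusted p = 0.023). The ES call was lost under common-median scaling (log2 0.23, adjusted p = 0.55) and without fibroblast array 1 (adjusted p = 0.056), and a second Nt5e probe missed the threshold in ES cardiomyocytes (log2 0.43, adjusted p = 0.083). Of 10 fibroblast marker genes, all were detected on all fibroblast arrays, and 8 were detected on no array of either cardiomyocyte type, Pdgfra and Twist2 being the others. The 9 cardiomyocyte markers were detected on all 6 cardiomyocyte arrays and on no fibroblast array.

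Smooth muscle genes split. Of 11 tested, 7 were lower and 2 higher in each line, where 15.9% (ES) and 15.4% (iPS) of all tested genes were higher. Acta2, the smooth muscle actin that is also a gene of the embryonic heart, read 13.26 to 13.32 in ES cardiomyocytes, 13.43 to 13.89 in iPS cardiomyocytes and 13.49 to 13.58 in fibroblasts. The 3 cell types were not separated by the test (-0.24 ± 0.78 and 0.11 ± 0.78, adjusted p = 0.86 and 0.95). Its common partners went in opposite directions. Tagln was at least 7.86-fold and 8.18-fold lower, and the light chain Myl9 11.6-fold and 10.4-fold higher. The defining smooth muscle genes Cnn1, Lmod1 and Myh11 were detected on none of the 9 arrays.

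**Figure D3:**
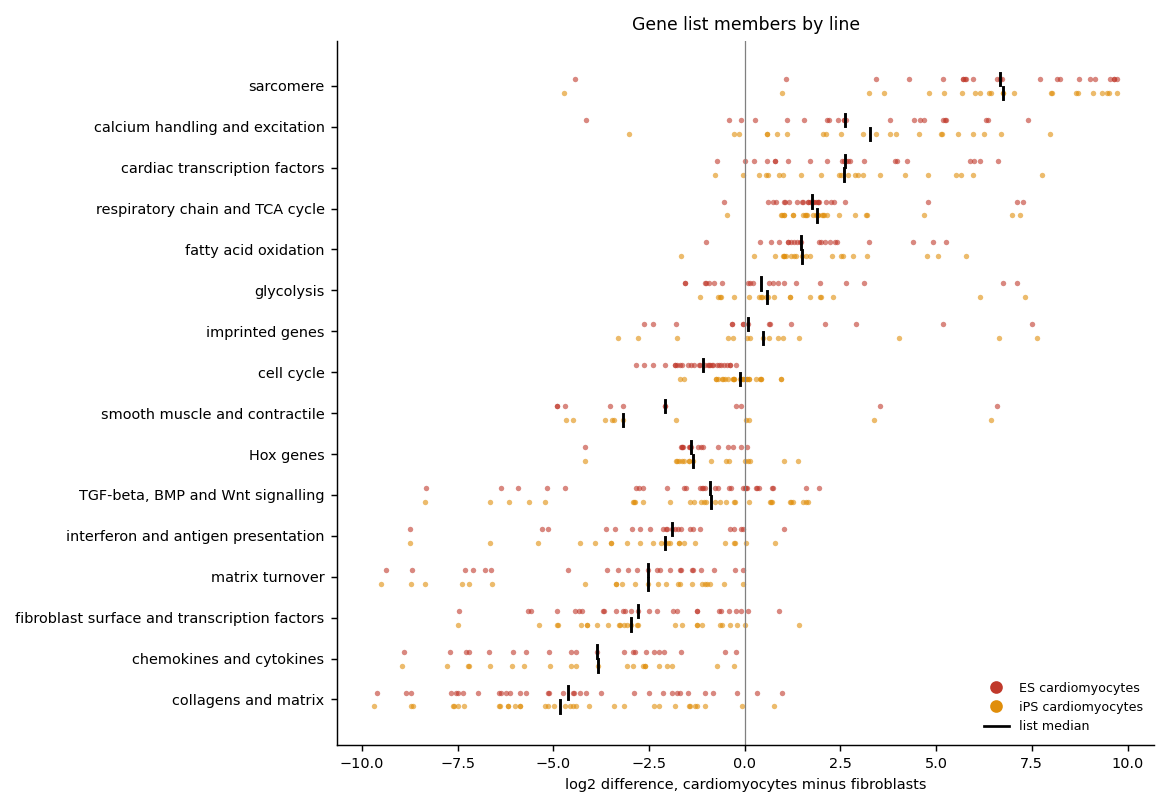
Log2 difference of cardiomyocytes minus fibroblasts (horizontal axis) for each tested member of 16 gene lists, with ES cardiomyocytes above and iPS cardiomyocytes below in each row and black bars at the list medians. The sarcomere medians are 6.66 and 6.74, the collagen and matrix medians -4.62 and -4.84, and the cell cycle medians -1.10 and -0.12.

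Chemokines, cytokines and interferon-response genes were higher in fibroblasts. Of 21 tested chemokines and cytokines, 19 were lower in each cardiomyocyte type and none was higher. The neutrophil attractant Cxcl1 read 12.74, 12.68 and 13.96 in fibroblasts and 4.14 to 4.24 in cardiomyocytes, at least 324-fold and 337-fold lower. The monocyte attractants Ccl4 and Ccl7 were at least 238-fold and 248-fold, and at least 154-fold and 160-fold, lower. Il6 was at least 4.87-fold and 5.07-fold lower. Its log2 difference was -2.86 and -2.93 with all fibroblast arrays and -1.80 and -1.87 without array 3. Of 23 genes of the interferon response and antigen presentation, 18 were lower in each line. Without fibroblast array 3 it was 15 and 16. Ifitm3, an interferon-induced membrane protein, was at least 282-fold and 293-fold lower. Its relative Ifitm1 was also 2.58-fold lower in iPS than in ES cardiomyocytes (adjusted p = 2.0e-06). The MHC class I gene H2-D1 was 35.3-fold and 42.0-fold lower, and its partner B2m 12.4-fold and 19.7-fold.

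Macrophage genes moved with these lists. Of 16 blood and macrophage markers, 11 were detected on all 3 fibroblast arrays, including the macrophage genes Lyz2 (13.40 to 13.86), C1qb (11.45 to 11.62), Cd14 (10.24 to 10.80), Adgre1 (10.18 to 10.62) and Csf1r (8.44 to 9.60). The leukocyte gene Ptprc was near the detection limit (4.90 to 5.30), and the 4 globin genes and Mpo were detected on none. The summed intensity of the list, above the offset, was 23500 to 30400 units in fibroblasts. It was 71.1 to 75.0 in ES and 42.7 to 65.6 in iPS cardiomyocytes. On the fibroblast arrays the 10 fibroblast markers summed to less, 14100 to 14600 units. The lists and probes differ, so that these sums do not give shares of cells. Lyz2 and Laptm5, a lysosomal protein gene of blood cells, are on this list and among the 15 genes named toward fibroblasts in ES cardiomyocytes. The list does not hold every macrophage gene, and the others of the 15 were not sorted by cell type. The part of macrophages in the chemokine, interferon and other fibroblast-high results was not tested. The probes of Lyz1 and Lyz2, near-identical genes, may each read both. Of 12 keratinocyte and epithelial markers none was detected on all fibroblast arrays, and 11 were detected on none.

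Hox genes, which keep the positional identity of adult fibroblasts, were mostly higher in fibroblasts. Of 17 tested, 11 were lower in ES and 9 in iPS cardiomyocytes, and 2 were higher in iPS cardiomyocytes, Hoxb2 (2.02-fold, adjusted p = 0.022) and Hoxc6 (2.63-fold, adjusted p = 0.039). Both of these missed the threshold under common-median scaling (adjusted p = 0.45 and 0.24), and 1 or the other without iPS cardiomyocyte array 1 (Hoxb2, 0.061), 2 or 3 (Hoxc6, 0.099 and 0.076) or fibroblast array 2 (Hoxb2, 0.063). Hoxb7 read 8.52, 8.35 and 8.15 in fibroblasts and was detected on no cardiomyocyte array (at least 11.8-fold and 12.3-fold lower). The posterior gene Hoxc10 was also lower (2.73-fold and at least 2.71-fold). Between the lines 3 of the 17 members differed, and these were higher in iPS cardiomyocytes. Over all tested genes 12.2% were higher and 13.2% lower in iPS cardiomyocytes at an adjusted p under 0.05. With the 2-fold rule added, 320 and 273 of 11501 were. Hoxb2 read 5.08 to 5.33 in ES and 7.08 to 7.60 in iPS cardiomyocytes, 4.50-fold apart (adjusted p = 8.4e-06). Hoxc6 read 5.09 to 5.38 against 6.40 to 7.34, 3.23-fold apart (adjusted p = 0.0033). Hoxb4 was detected on no ES cardiomyocyte array and on all of the iPS arrays (6.01 to 6.47), at least 2.71-fold apart (adjusted p = 8.7e-05).

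Among 30 genes of TGF-beta, BMP and Wnt signalling, 15 were lower and 2 higher in ES cardiomyocytes, and 14 lower and 6 higher in iPS cardiomyocytes. Over all tested genes 16.8% (ES) and 16.7% (iPS) were lower and 15.9% and 15.4% higher. The activin subunit Inhba was at least 65.7-fold and 68.4-fold lower, and the TGF-beta-induced matrix gene Tgfbi 60.7-fold and at least 56.3-fold. The BMP antagonist Grem1 read 10.20 and 10.27 on fibroblast arrays 1 and 2 and 7.82 on array 3, and was detected on no cardiomyocyte array. Tgfb2 was higher in cardiomyocytes, 3.01-fold and 3.02-fold, and the Wnt target Axin2 at least 2.96-fold and 1.78-fold. Under common-median scaling only 1 member was higher in each line, and Tgfb2 missed the threshold in both (log2 0.97 and 1.03, adjusted p = 0.12 and 0.099).

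The cell cycle list separated the 2 cardiomyocyte types. Of 28 tested genes, 15 were lower than in fibroblasts in ES cardiomyocytes, 2 in iPS cardiomyocytes, and none was higher by 2-fold in either. Tested between the lines, 20 of 28 were higher in iPS cardiomyocytes at an adjusted p under 0.05 and none was lower, where 12.2% of all tested genes were higher. The list's median difference between the lines was 1.10, against -0.01 over all genes. The mitotic kinase Cdk1 read 5.16, 5.22 and 5.25 in ES cardiomyocytes, 8.24, 6.86 and 8.04 in iPS cardiomyocytes, and 7.91, 7.67 and 7.25 in fibroblasts. ES cardiomyocytes lay below all other arrays, and the iPS and fibroblast ranges overlapped. It was 5.67-fold higher in iPS than in ES cardiomyocytes (log2 2.50 ± 0.26, adjusted p = 2.9e-06). The replication helicase subunit Mcm6 was 4.34-fold higher (adjusted p = 4.2e-07), and the DNA topoisomerase Top2a of dividing cells 2.60-fold higher (adjusted p = 7.1e-06). The mitotic kinase Plk1 was detected on no ES cardiomyocyte array and was at least 2.37-fold higher in iPS cardiomyocytes. Array 2 was the lowest of the 3 iPS cardiomyocyte arrays for each of these 4 genes. The mitotic kinesin gene Kif23 read 8.40 to 8.76 in ES and 8.12 to 8.56 in iPS cardiomyocytes at the probe used here. At 2 other Kif23 probes, detected on no ES and on all iPS cardiomyocyte arrays, the log2 differences from fibroblasts were -3.18 and -1.75 in ES and 0.18 and 0.23 in iPS cardiomyocytes, so that its probes disagree. Under the 19 other settings tried the number of list members higher in iPS cardiomyocytes lay between 16 and 22. Common-median scaling raised the number lower than in fibroblasts to 24 (ES) and 6 (iPS).

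Genes that restrain the cycle went in different directions. Of 18 inhibitors and p53 targets, 3 were higher and 6 lower in ES cardiomyocytes, and 2 higher and 7 lower in iPS cardiomyocytes. The numbers higher were near the shares of all tested genes, 15.9% and 15.4%, where 16.8% and 16.7% were lower. Cdkn1c, the imprinted inhibitor p57, read 9.64 to 9.95 in ES and 11.10 to 11.46 in iPS cardiomyocytes against 4.37 to 4.84 in fibroblasts, 36.1-fold and 99.8-fold higher. It was 2.77-fold higher in iPS than in ES cardiomyocytes (adjusted p = 0.0058), a difference that missed the threshold under common-median scaling (adjusted p = 0.051). The senescence-linked inhibitors Cdkn2a and Cdkn2b read 8.74 to 9.43 and 9.26 to 9.43 in fibroblasts and were at least 19.3-fold and 23.5-fold lower in ES cardiomyocytes. Another Cdkn2a probe was detected on all 9 arrays and its log2 differences of -0.57 (ES) and -0.60 (iPS) missed the threshold (adjusted p = 0.10 and 0.085).

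**Figure D4:**
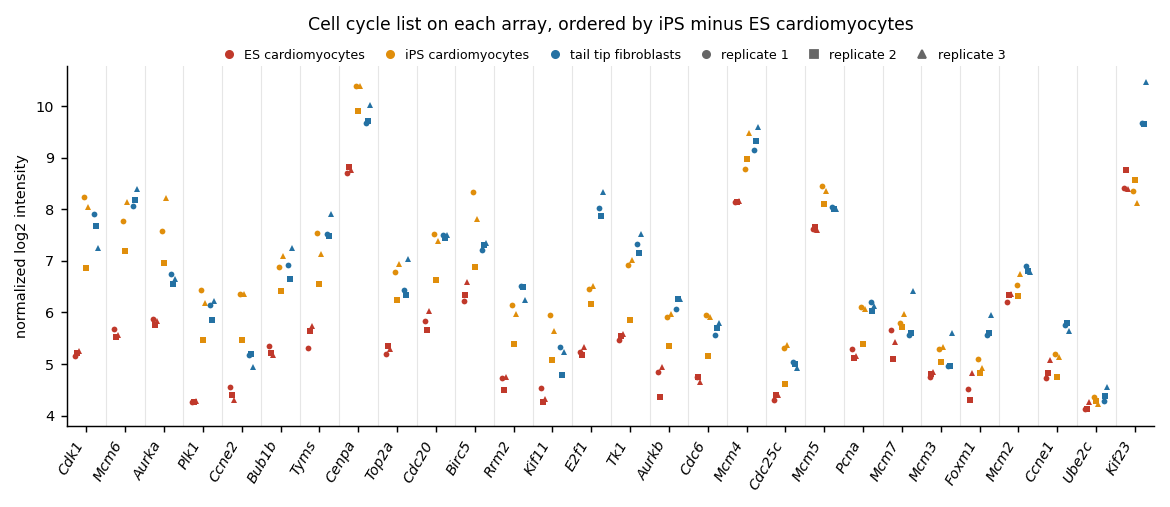
Normalized log2 intensity (vertical axis) of the 28 tested cell cycle genes (horizontal axis, ordered by the difference of iPS minus ES cardiomyocytes) on each of 9 arrays. ES cardiomyocytes are below both other cell types for most genes (Cdk1 5.16 to 5.25).

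Of 15 imprinted genes, 5 were higher and 3 lower in each line, with list medians of 0.08 (ES) and 0.48 (iPS). Over all tested genes 15.9% (ES) and 15.4% (iPS) were higher and 16.8% and 16.7% lower, so that the number lower was near that share. The fetal growth factor Igf2 read 12.89 to 13.30 in ES and 13.18 to 13.24 in iPS cardiomyocytes against 5.45 to 5.77 in fibroblasts, 181-fold and 198-fold higher. Peg3 was 7.52-fold and 16.4-fold higher. Grb10, an inhibitor of growth factor signalling, was 5.30-fold and 10.0-fold lower. Of 23 pluripotency markers, 17 were detected on no ES cardiomyocyte array, 15 on no iPS cardiomyocyte array and 17 on no fibroblast array, Pou5f1 among them in each. On all 3 arrays of a group 6, 5 and 5 were detected, with Sall4, Dppa5a, Esrrb and Klf2 in both cardiomyocyte types. Nanog was detected on all 3 ES cardiomyocyte arrays and on no iPS cardiomyocyte or fibroblast array. Klf4 and Klf2, which are on that list, were higher in fibroblasts, 14.8-fold and 8.65-fold over ES cardiomyocytes. Esrrb read 5.20 to 5.51 in ES and 6.36 to 6.83 in iPS cardiomyocytes and was at least 4.05-fold above fibroblasts in the latter (adjusted p = 0.0047).

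Between the 2 cardiomyocyte types 4879 probes differed, 23.2% of those tested, 2397 higher (11.4%) and 2482 lower (11.8%) in iPS cardiomyocytes. By at least 2-fold it was 530 and 417, or 2.52% and 1.98%. The fibroblast values cancel in this comparison, so that it also tests whether the change from fibroblasts differs between the lines. Under common-median scaling 1709 probes passed. The phosphatase gene Dusp2 read 10.16, 10.32 and 10.10 in iPS cardiomyocytes, 5.01, 4.98 and 5.01 in ES cardiomyocytes and 5.15 to 6.11 in fibroblasts. It was 36.6-fold higher in iPS cardiomyocytes (5.19 ± 0.18, adjusted p = 6.8e-12), the largest such difference upward. The largest downward, -5.90, belonged to a probe with no listed gene. The signalosome subunit Cops8 (19.8-fold), the cytokine Il15 (15.9-fold), the muscle small heat shock protein Hspb7 (11.7-fold), the chemokine Ccl27a (10.2-fold), the AMP kinase subunit Prkag2 (at least 7.44-fold) and the mitochondrial import receptor Tomm22 (9.41-fold) followed with Slc12a8 (at least 8.29-fold). For Tomm22 a second probe gave log2 differences from fibroblasts of 0.39 and 0.74, against -2.10 and 1.14 for the first, so that its 2 probes disagree on the direction for ES cardiomyocytes and on the size for iPS cardiomyocytes. Higher in ES cardiomyocytes were the X-linked Xlr4a (at least 8.02-fold), the neuronal calcium sensor Vsnl1 (10.5-fold), the stress pseudokinase Trib3 (8.87-fold), Dkk3 (7.63-fold), Palmd (6.96-fold), the cardiac calcium-binding protein S100a1 (6.86-fold), Nrn1l (6.72-fold) and Gstk1 (6.45-fold). Dkk3 was the least even of these, reading 10.83 to 11.14 in ES cardiomyocytes and 6.76, 8.29 and 9.02 in iPS cardiomyocytes.

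Counted by detection alone, 1128 of 45281 probes were detected on all ES cardiomyocyte arrays and on no fibroblast array, and 2130 the reverse. For iPS cardiomyocytes the counts were 1130 and 1933. Fibroblast arrays detected more probes on average, 16039 against 14686 (ES) and 15110 (iPS). Their raw mean intensity was also higher, 194.7 to 277.8 against 134.9 to 166.9 on the cardiomyocyte arrays. The part of array brightness in these counts was not tested. Most markers of other lineages were not detected in the cardiomyocytes, with exceptions. Of 12 endothelial markers 9 were detected on no ES cardiomyocyte array and 9, not all the same ones, on no iPS cardiomyocyte array. Of 14 endoderm markers the counts were 13 (ES) and 9 (iPS), and Amn, Apoa2 and Ttr were detected on all iPS cardiomyocyte arrays. Of 11 neural markers, Map2, Ncam1 and Nes were detected on all arrays of both cardiomyocyte types and 8 on none. Of 12 adipocyte and cartilage markers, Pparg and Sox9 were detected on all ES cardiomyocyte arrays and Col2a1 on all iPS cardiomyocyte arrays. Of 13 skeletal muscle markers, 4 were detected on all ES cardiomyocyte arrays and 1 on all iPS cardiomyocyte arrays, while the myogenic factors Myod1, Myog, Myf5 and Pax7 were detected on none. The muscle creatine kinase Ckm read 6.18, 6.61 and 6.58 in ES cardiomyocytes and 6.05, 4.23 and 4.23 in iPS cardiomyocytes, 3.08-fold lower in the latter (adjusted p = 0.0012). The fast skeletal troponin I gene Tnni2 read 6.83 to 7.17 and 4.39 to 5.13, 4.77-fold lower in iPS cardiomyocytes (adjusted p = 6.2e-07).

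The genes that separated cardiomyocytes from fibroblasts were then read in the embryoid bodies and undifferentiated cells. The levels of cardiomyocytes and fibroblasts were used in choosing the genes, and those of embryoid bodies and undifferentiated cells were not. The arrays of the latter did enter the normalization, the detection filter and the shared estimate of spread behind the adjusted p. The 659 probes at least 4-fold higher in cardiomyocytes of both lines had an array median of 5.25 to 5.32 in undifferentiated ES cells, 5.88 to 6.18 in ES embryoid bodies and 8.52 to 8.54 in ES cardiomyocytes. Of them 37.3% were higher in ES embryoid bodies than in ES cells and 9.71% lower, against 16.6% and 16.7% of all probes at an adjusted p under 0.05. For iPS embryoid bodies the shares were 43.7% and 9.71%, against 18.8% and 18.7% of all probes. Sarcomere genes were among the higher ones, with Myl3 at 9.88 ± 0.54 in ES embryoid bodies and 10.08 ± 0.61 in iPS embryoid bodies (SD, n = 3), below its level in cardiomyocytes and above the 4.29 ± 0.08 and 4.40 ± 0.10 of the undifferentiated lines. The uridine phosphorylase Upp1 and the DNA demethylase Tet1 did the reverse, falling from 12.75 and 9.74 in ES cells to 11.50 and 8.46 in ES embryoid bodies and reading 9.37 and 6.53 in ES cardiomyocytes.

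The 1171 probes at least 4-fold higher in fibroblasts were split in embryoid bodies. Against undifferentiated ES cells 22.9% were higher and 19.8% lower. For iPS embryoid bodies the shares were 13.6% and 32.1%. Under common-median scaling, where 1800 probes made up the set, more were higher than lower in both lines: 23.4% against 3.06% (ES) and 17.7% against 10.6% (iPS). Sox9, Lum, Pdgfra and Col3a1, genes of connective tissue and cartilage, were higher in embryoid bodies of both lines (Lum 9.18 ± 0.20 in ES embryoid bodies and 8.36 ± 0.06 in fibroblasts). Cxcl1, Mmp3 and Fos were lower. The set's array median was 5.33 to 5.36 in ES cells and 5.43 to 5.98 in iPS cells, and the summed intensity of the 10 fibroblast markers was 448 to 509 and 675 to 2220 units there. These cells had been grown on feeders, whose part in this reading was not tested.

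**Figure D5:**
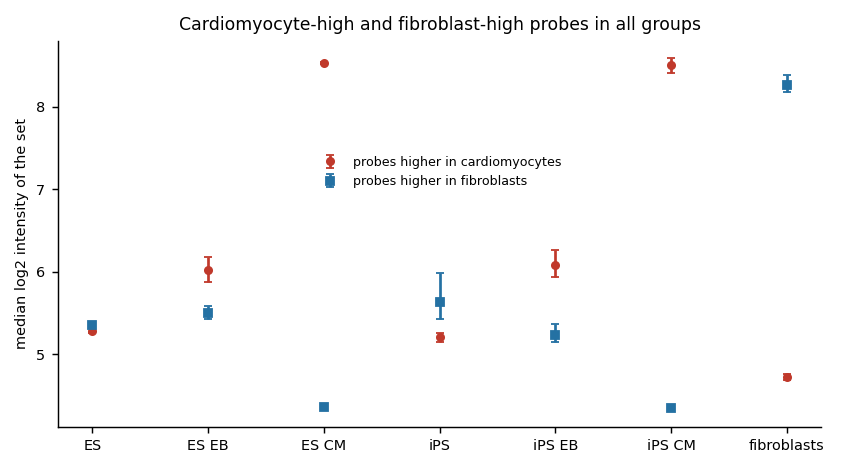
Median normalized log2 intensity (vertical axis) of the 659 probes higher in cardiomyocytes and the 1171 probes higher in fibroblasts, in the 7 groups of the series; points are means of 3 array medians and bars run from the lowest to the highest array. The cardiomyocyte set lies between its undifferentiated and cardiomyocyte levels in embryoid bodies (5.88 to 6.26), and the fibroblast set reads 4.33 to 4.37 in cardiomyocytes. In each set the difference between cardiomyocytes and fibroblasts follows from how the set was chosen.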

How the data were processed

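Mouse RNA was hybridised to Illumina bead arrays. The authors deposited a non-normalized table of probe intensity with detection p-values and a normalized table of intensity, per the file headers. Software for these steps: not given in the sources used here. The identifiers of the 2 tables disagree: 45281 rows were paired by value, within 0.00125 log2 units, and 3 carried the same identifier. Genes were named from the non-normalized identifiers through GEO's platform annotation, where 34885 probes had 1 symbol, 18 several and 10378 none.

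From the non-normalized table, intensities were background-corrected from the detection p-values (limma's nec, offset 16), quantile-normalized and put on a log2 scale. Folds of dim genes are therefore understated. Probes detected (p under 0.01) on at least 3 arrays were tested, 21047 of 45281. The fit was limma 3.58.1 in R 4.3.3 over 7 groups, with the 3 fibroblast arrays averaged to 1 sample and Benjamini-Hochberg adjustment over all tested probes. Where labels give 3 cultures per group, p-values measure the spread between these. Genes were named by rule: among called probes with a gene symbol whose single arrays do not overlap, the 15 largest differences in each direction against fibroblasts and the 8 largest between the lines, plus members of gene lists. The members and lists were chosen with earlier results of these data known, and genes added to the text beyond the rule were chosen after their values were seen.

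In simulated data for ES cardiomyocytes minus fibroblasts, log2 changes of 0.5, 1 and 2 were put into 67, 67 and 66 of 21047 probes. The test called 8.96%, 40.3% and 92.4% of them, with 3 false among 97 calls. In the data 48.3% of probes were called. The adjusted threshold depends on how many probes change, so that these shares do not give the power of the comparison made here. Deviations of equally numbered samples correlated at -0.165 to 0.059 between lines or with fibroblasts, 0 of 9 pairs over 0.1, and at -0.177 to 0.217 within a line, 5 of 18 pairs over 0.1, so the numbers were not taken to pair samples. Alternatives were other background correction, scaling, filters, fits and omitted arrays. Promoters came from RefSeq (GRCm38.p6), with an entry for 9248 of 11501 tested genes.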

Additional observations from a re-analysis of the deposited data

Results flagged for a closer look

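The difference between iPS and ES cardiomyocytes was tested directly, and 4879 of 21047 probes passed at an adjusted p under 0.05 (limma). Because the fibroblast values cancel, these are probes whose difference from fibroblasts was unequal in the 2 lines.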

How the results depend on the processing

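Under the alternatives run, the total counts against fibroblasts stayed within 1.5 times the main value, but common-median scaling lowered the probes higher in cardiomyocytes from 5463 to 2140 (ES) and from 5342 to 2252 (iPS), and raised the cell cycle genes lower in iPS cardiomyocytes than in fibroblasts from 2 to 6. It lowered the count between the lines to 1709 (986 higher, 723 lower in iPS cardiomyocytes). It also lowered the share of cardiomyocyte-high probes lower in embryoid bodies to 0.632% (ES) and 0.842% (iPS), and of fibroblast-high probes to 3.06% and 10.6%, so that in iPS embryoid bodies more of these were higher (17.7%) than lower. The cause was not tested. Leaving out 1 array at a time gave 9461 to 10427 probes (ES minus fibroblasts), 9472 to 10125 (iPS minus fibroblasts), 3492 to 4879 (between the lines), 320 to 328 called among 439 named gene comparisons, and 672 to 695 calls over the gene lists. With the replicate number as a fixed block the counts were 12405, 12115 and 4425, and with the culture as a random replicate block 10168, 9919 and 4881. The numbers were not taken to pair the samples. Without background correction, as in the authors' normalized table, the probes at least 2-fold apart were 4290 (ES), 4225 (iPS) and 475 (between the lines), against 6063, 5890 and 947. Of 8338 values of named comparisons under 19 settings, 83 lost and 51 gained the threshold. Direction was followed only for comparisons that passed in the main setting, and of these 0 changed it. Probes near background give lower limits only, and the averaging of the fibroblast arrays to 1 sample limits what the tests against it cover.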
